A study of Mus musculus with 2 samples.

Results

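Genes that mark the secretory and ciliated cells of the conducting airway were compared between the epithelial cell lines Mlesico and Mle29c. The 10 genes were Scgb1a1, Scgb3a1, Scgb3a2, Cyp2f2, Muc5b, Muc1, Spdef, Foxj1, Foxa3 and Bpifa1, out of 18193 genes named on the array. They were chosen by name as known airway markers, and each was read by every probe set (a group of short probes for a transcript) whose only annotated gene was that member, which gave 1 probe set per gene. The samples were mouse total RNA from 1 sample of each line, both kept in the same serum-containing medium and hybridised as biotin-labelled cRNA to 1 array each. The study is about miR-29c and pulmonary fibrosis. The labels give the line names but neither what was introduced into each line, nor the direction in which Mle29c differs in miR-29c, nor whether a line is a clone. With 1 array per line there was no spread between replicates, and neither a test nor a p-value can be given.

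The conducting airway is lined mainly by secretory club cells, mucus-producing goblet cells and ciliated cells. Club cells release small secretoglobins and metabolise inhaled chemicals, goblet and gland cells release the gel-forming mucins, and the cilia move the mucus. Ciliated and secretory fates are set by different transcription factors, with Foxj1 driving the genes of motile cilia and Spdef and Foxa3 acting in mucous differentiation.

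miR-29c, the microRNA that the series is about, recognises its targets mainly through the seed, bases 2 to 8 from the 5′ end, shown here in capitals for the mature mouse microRNAs of its family (RefSeq, GRCm38.p6).
miR-29c-3p: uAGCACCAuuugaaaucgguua
miR-29a-3p: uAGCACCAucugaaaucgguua
miR-29b-3p: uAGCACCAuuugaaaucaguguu
The miR-29c sequence lies at chr1:195037600-195037621 on the plus strand. All 3 microRNAs share the seed AGCACCA, and miR-29a differs from miR-29c at 1 base outside it, U10C with positions counted from the 5′ end of miR-29c. Target sites in the members were not analysed here.

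Of the 10 members, the mucin gene Muc5b and the secretoglobin genes Scgb1a1 and Scgb3a2 were more than 2-fold higher in Mle29c, and the ciliated cell regulator Foxj1 was more than 2-fold lower. The other 6 members were within 2-fold, among them the mucous regulators Spdef and Foxa3. All differences are log2 ratios of Mle29c over Mlesico on a scale taken as log2, where 1 is a 2-fold difference. Each deposited value is a log signal from which the authors had subtracted the midpoint of both arrays, so the values of a probe set are equal in size and opposite in sign, and how abundant a transcript was cannot be read from them directly.

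Because faint signals scatter widely, a class of brightness was recovered for each probe set from the rounding of the deposited numbers. The high class holds mean log2 levels from 8 upwards, the middle class those from 4 to 8 and the low class those under 4. A gene with a high or middle probe set was called measured. By this rule 8 of the 10 members were measured, and 14844 of the 18193 genes. Muc1 and Cyp2f2 were in the low class. The class was firmest where both values did not sum to exactly 0, which held for Scgb1a1, Foxj1 and Foxa3 (all middle) and for Muc1 (low). Even then a mean level above 8 can be classed as middle if the lower of both signals lies under 8. For the other 6 members the class came from the rounding step alone and is less certain. Muc5b and Bpifa1 fell in the high class on that basis, but of the probe sets so classed only 53.0% are expected to be truly high, 35.2% middle and 11.8% low. Scgb3a1, Scgb3a2 and Spdef fell in the middle class, of which 74.9% are expected to be right and 25.1% to be low. These shares are averages over all ratios, and large ratios were commoner in the low class. For Muc5b and Scgb3a2, both more than 2-fold higher, a truly low level is therefore likelier than the shares state. No member had a high level established from the sum of its values.

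Among the measured members, 3 of 8 had an Mle29c signal 2-fold or more above that of Mlesico and 1 of 8 one as far below, whereas 8.4% of all measured genes were at least 2-fold higher and 7.19% lower. Of the 3 higher members, Muc5b and Scgb3a2 were called measured from the step alone and may be faint. The median of the 8 was 0.20, against 0.00 for all measured genes, with 4 above 0 and 4 below. The members thus did not share a direction. Different probe sets of a gene had a pooled SD of 0.62 in log2 ratio over 6910 genes, a technical measure inside the arrays that leaves out differences between cultures. No member had a second probe set against which its own value could be set.

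**Figure D1:**
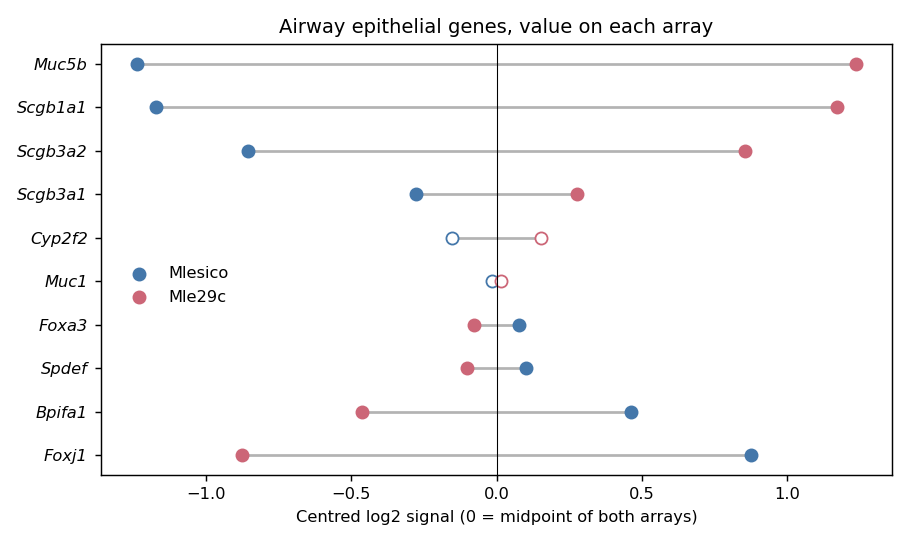
Centred log2 signal of each of the 10 genes on both arrays (x axis, 0 is the midpoint of both arrays), with Mlesico in blue and Mle29c in red, ordered by the ratio. Open points mark Cyp2f2 and Muc1, whose probe sets were in the low class. Muc5b, Scgb1a1 and Scgb3a2 are widest apart with Mle29c on the right, and Foxj1 is widest apart with Mle29c on the left.

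Among the secretoglobins, small secreted proteins of airway epithelium, Scgb1a1 encodes the club cell secretory protein, the classical marker of that cell. Its centred log2 signal was -1.17 in Mlesico and 1.17 in Mle29c, a log2 ratio of 2.35 or a 5.08-fold higher signal in Mle29c. Of 9051 probe sets whose middle class followed from the sum, 1.46% had a ratio at least as high. If its mean log2 level was between 4 and 8, the Scgb1a1 signal lay between 2.83 and 6.83 in Mlesico and between 5.17 and 9.17 in Mle29c. The Mlesico signal may thus reach into the range of the low class. Scgb3a2, a secretoglobin of club cells, had centred log2 signals of -0.86 in Mlesico and 0.86 in Mle29c, a log2 ratio of 1.71 or 3.28-fold. Of the 5314 probe sets classed as middle from the step, 6.94% were at least as high. Scgb3a1, a secretoglobin of the larger airways, was at -0.28 and 0.28, a log2 ratio of 0.56. All 3 secretoglobins were thus higher in Mle29c, Scgb3a1 by less than 2-fold and by less than the SD between probe sets of a gene.

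Cyp2f2 encodes the club cell cytochrome P450 that activates naphthalene. Its centred log2 signal was -0.15 in Mlesico and 0.15 in Mle29c, a log2 ratio of 0.31 from a low-class probe set. In the low class 57.8% of probe sets were past 2-fold in one direction or the other, so this value carries little information on Cyp2f2. Bpifa1, which encodes a secreted protein of the upper airway lining with antimicrobial and surface-active properties, went the other way, with 0.46 in Mlesico and -0.46 in Mle29c. Its log2 ratio of -0.93, or 1.90-fold lower in Mle29c, stayed just inside 2-fold, and 8.10% of measured genes were at least as low.

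The mucins differed from one another. Muc5b encodes the gel-forming mucin needed for clearance of the airways, and had the highest ratio of the 10 genes. Its centred log2 signal was -1.24 in Mlesico and 1.24 in Mle29c, a log2 ratio of 2.48 or 5.58-fold, and 1.79% of all measured genes were at least as high. Muc1, a mucin anchored in the cell membrane, was at -0.01 and 0.01, a log2 ratio of 0.03. Its mean log2 level was between 2 and 4, so Muc1 signal was faint on both arrays.

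The 3 transcription factors all had ratios below 0, and of these Foxj1 alone was past 2-fold. Foxj1 had a centred log2 signal of 0.88 in Mlesico and -0.88 in Mle29c, a log2 ratio of -1.76, which is 3.38-fold lower in Mle29c. If its mean log2 level was between 4 and 8, the Foxj1 signal lay between 4.88 and 8.88 in Mlesico and between 3.12 and 7.12 in Mle29c. Of the 9051 probe sets in the middle class from the sum, 3.27% were at least as low. Spdef, an ETS factor required for goblet cell differentiation, was at 0.10 in Mlesico and -0.10 in Mle29c, a log2 ratio of -0.20. Foxa3, a forkhead factor that can promote goblet cell differentiation, was at 0.08 and -0.08, a log2 ratio of -0.16. Both were far inside the SD between probe sets of a gene.

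The share of probe sets past 2-fold depended strongly on brightness, and this sets how the single values read. In the classes that followed from the sum it was 5.47% in the high class and 60.5% in the low class. In the middle class 9.74% of probe sets were 2-fold or more higher and 10.2% as far lower. The middle 95% of ratios in that class ran from -2.01 to 1.88, and Scgb1a1 at 2.35 lay outside this range whereas Foxj1 at -1.76 lay inside it. Among middle-class probe sets from the step the range was -2.76 to 2.89, which holds Scgb3a2. Muc5b, at 2.48, lay outside the range of -1.88 to 1.97 for high-class probe sets from the step. Its class is not certain, and 2.48 lay inside the middle-class range from the step. It also lay inside the range of low-class probe sets from the sum, -3.49 to 3.54. Ratios from 2.25 to 2.5 were held by 2.6% of low-class, 0.48% of middle-class and 0.09% of high-class probe sets from the sum. A truly low level is thus likelier for Muc5b than the 11.8% expected over all probe sets of its step class.

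**Figure D2:**
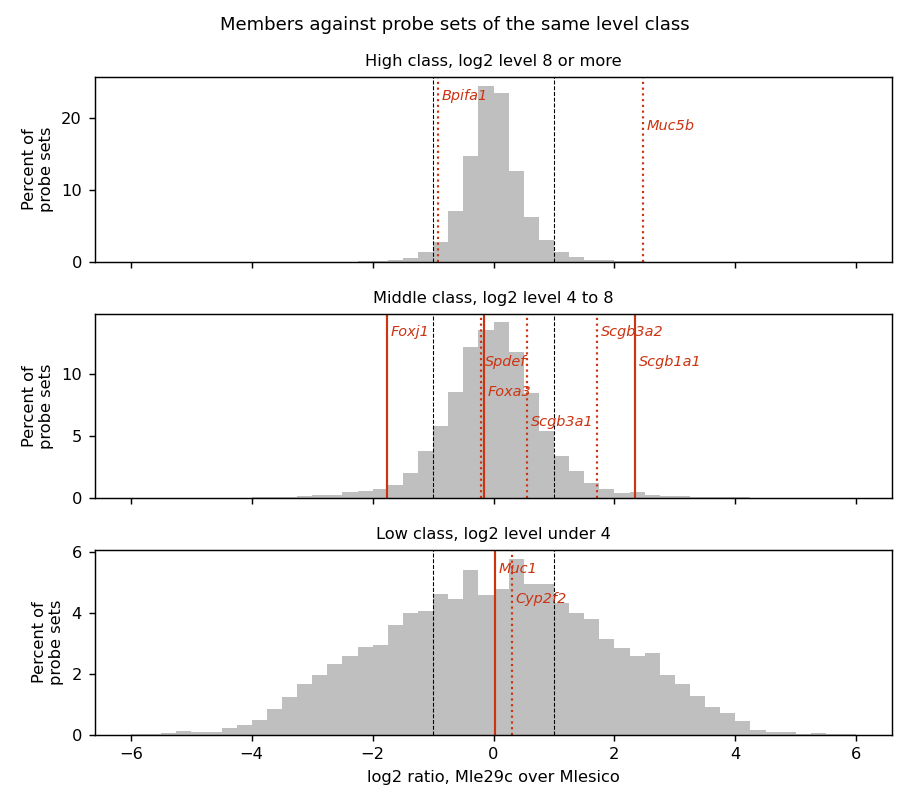
Log2 ratio of Mle29c over Mlesico (x axis) against the percent of probe sets (y axis) for probe sets whose high, middle or low class followed from the sum, in bins of 0.25. Red lines mark the members in the panel of their class, solid where the class came from the sum and dotted where it came from the rounding step, and dashed lines mark 2-fold; Scgb1a1, Scgb3a2 and Muc5b lie to the right of 2-fold and Foxj1 to the left.

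Ratios in these arrays also differed between chromosomes, so each member was set against its surroundings (gene order from RefSeq, GRCm38.p6). The median ratio was 0.27 on chromosome 19, which carries Scgb1a1, and -0.25 on chromosome 11, which carries Foxj1 and Scgb3a1. With the chromosome median subtracted, Scgb1a1 stood at 2.08, Foxj1 at -1.51, Scgb3a1 at 0.80, Scgb3a2 at 1.60 and Muc5b at 2.46, and the same 4 genes were past 2-fold. Among the 20 measured genes nearest Scgb1a1, 10 on each side, none was past 2-fold, with ratios from -0.58 to 0.91 and a median of 0.21. Around Foxj1 the median was -0.18, with 1 of 20 genes at least 2-fold lower (at -1.20) and 2 higher. The neighbours of Muc5b had a median of 0.00 and those of Scgb3a2 of -0.03, but both sets scattered widely. Around Muc5b the ratios ran from -4.83 to 3.39, with 2 of 20 genes at least 2-fold higher and 2 lower. Gm16982, directly beside Muc5b, was at 3.39 and so above it. Around Scgb3a2 they ran from -3.78 to 4.54 with 8 of 20 past 2-fold. Around Bpifa1, within the cluster of BPI fold genes, Bpifa2 stood at 0.03, Bpifb1 at 0.32, Bpifa5 at -1.54 and Bpifb9b at 1.02.

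**Figure D3:**
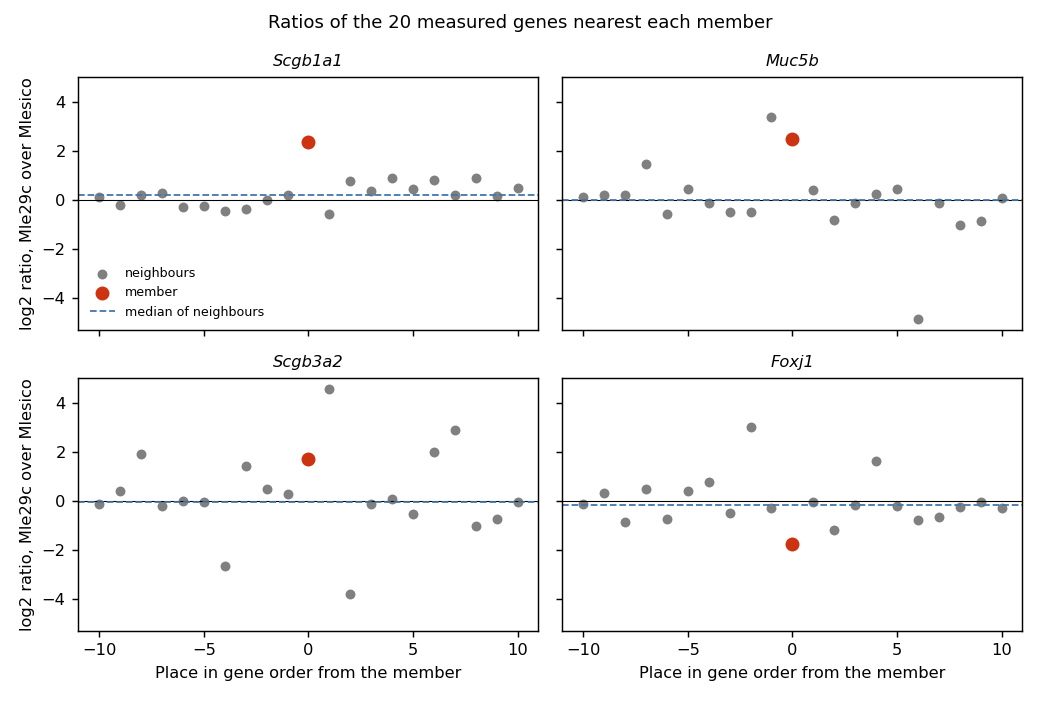
Log2 ratio of Mle29c over Mlesico (y axis) for the 20 measured genes nearest Scgb1a1, Muc5b, Scgb3a2 and Foxj1 (grey) by place in gene order (x axis, the member at 0 in red), with the median of the neighbours as a dashed line. Scgb1a1 lies above all of its neighbours and Foxj1 lies below all of its neighbours. In contrast, 4 of the neighbours of Scgb3a2 lie above it, and Gm16982, beside Muc5b, lies above Muc5b.

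Other genes of the same cells were taken from lists of markers. Of 11 measured club and secretory cell genes outside the 10, 4 were 2-fold or more higher in Mle29c and 3 were lower by as much, with a median of 0.32, and 4 more had only low-class probe sets. Cyp4b1, a cytochrome P450 of club cells, stood at 3.87 and Cldn10, a claudin of club cells, at 2.94, both from 1 probe set. Selenbp1 was at 1.86, with its 2 probe sets at 1.84 and 1.88, and the carbonyl reductase gene Cbr2 at 1.35. In the other direction the retinaldehyde dehydrogenase gene Aldh1a1 stood at -3.89, Lypd2 at -3.41 and Aldh1a7 at -1.23. The club cell genes outside the secretoglobins thus lay on both sides of 0. The farthest from 0, Cyp4b1, Cldn10, Aldh1a1 and Lypd2, each had 1 probe set classed from the step, which is less certain. With the class from the sum the median of the list was 0.98, over only 1 gene in the high class and 3 in the middle class.

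Goblet cell and mucus genes outside the 10 were mostly faint. All probe sets of 10 of the 20 genes were in the low class, including those of the gel-forming mucin gene Muc5ac, whose value was 0.25. Of the 10 measured genes 1 was at least 2-fold higher and none lower, with a median of 0.18. The forkhead gene Foxq1 was at 2.21, with its probe sets at 2.18 and 2.25, and Bpifb1, a secreted relative of Bpifa1, was at 0.32. The trefoil factor gene Tff3 was at 0.14 and Muc20 at -0.37, with its probe sets at -1.24 and 0.50. In the families of the members, Muc3, a membrane mucin, stood at 3.81 from 1 probe set classed from the step. The secretoglobin gene Scgb1b27 was at -1.65, and the median was 0.00 over 10 measured genes. With every probe set kept, low class included, 6 of 19 genes of those families were at least 2-fold higher and 1 lower, against 12.4% and 10.9% of all 18193 genes. Of the 6 higher genes only Muc3 was measured. The share of all genes is not a like background, since 9 of the 19 were not measured, against 3349 of the 18193. In the low class 57.8% of probe sets were past 2-fold one way or the other.

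Ciliated cell genes did not follow Foxj1 in one direction. Of 25 measured genes 3 were at least 2-fold higher and 3 at least 2-fold lower, with a median of 0.04. Of all measured genes 8.4% were as far higher and 7.19% as far lower. Rsph4a, a radial spoke gene, stood at 3.01, Hydin, a gene of the central pair of the axoneme, at 1.70 and the tektin gene Tekt1 at 1.68. Cfap52, a gene of motile cilia, was at -1.84, the axonemal dynein gene Dnah9 at -1.20 and Pifo at -1.15. Of these genes past 2-fold, Tekt1 and Cfap52 were classed from the sum and the others from the step. Rfx3, a transcription factor of ciliogenesis, was at -0.29, with its probe sets at -0.39 and -0.20, and Rfx2 was at 0.64. With every probe set kept, 7 of 34 ciliated cell genes were at least 2-fold higher and 3 lower, against 12.4% and 10.9% of all 18193 genes. The higher genes other than Rsph4a, Hydin and Tekt1 had only low-class probe sets. Of the 34 genes 9 were not measured, against 3349 of the 18193, so these shares are not fully alike.

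Regulators that act on airway epithelium were within 2-fold in 16 of 19 measured genes, with a median of 0.24. Nkx2-1, the transcription factor of lung identity, was at 0.31, Foxa1 at -0.04 and Foxa2 at -0.09. Cebpa, a factor of differentiated lung epithelium, was at 3.26, Elf5 at 1.28 and Ehf just past 2-fold, from 1 of its 4 probe sets. Cebpa and Ehf were classed from the step alone. The Elf5 value turned to -0.65 with its low-class probe set included. Stat6 and Il4ra, which carry the interleukin signal for mucous differentiation, stood at 0.30 and 0.31. Cytochrome P450 genes and their partner enzymes were within 2-fold in 12 of 14 genes. The exceptions were Cyp2s1 at 4.53, classed from the step alone, and Cyp2b10 at 2.98 (1.31 with every probe set kept). Por was listed for this group but had no probe set with a single gene name.

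**Figure D4:**
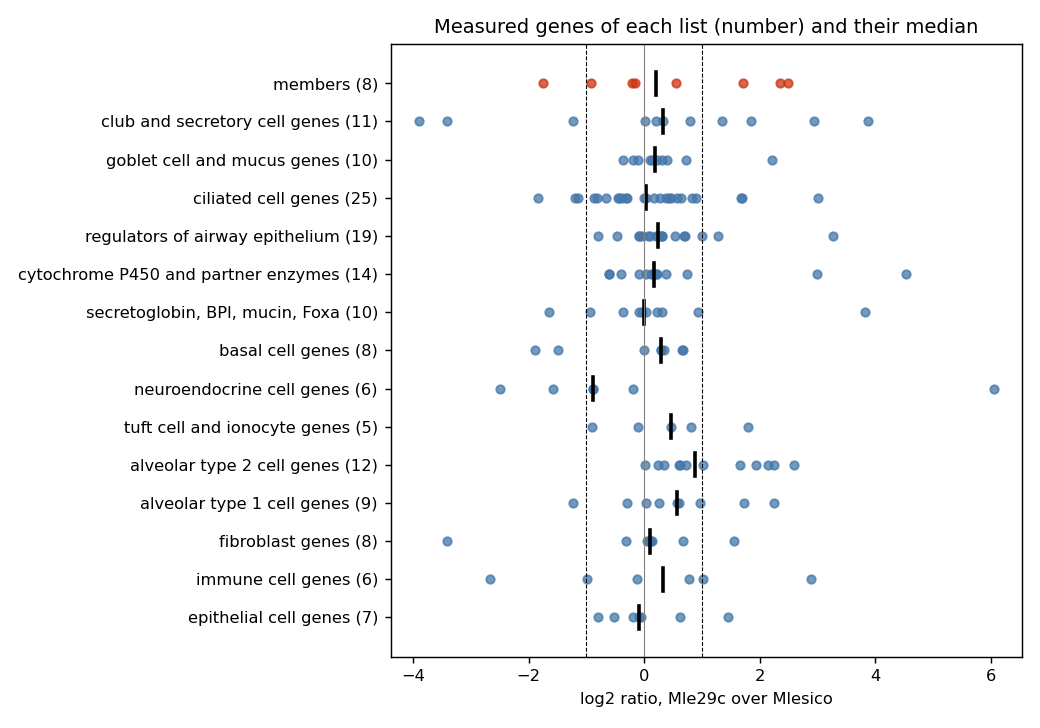
Log2 ratio of Mle29c over Mlesico (x axis) of every measured gene in each list, with the number of genes in brackets, a black bar at the median and dashed lines at 2-fold. The 8 measured members (red) spread from -1.76 to 2.48, and the widest spreads are in the club cell and neuroendocrine lists.

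Markers of other lung cells were read beside the members. Alveolar type 2 genes were at least 2-fold higher in 6 of 12 measured genes and lower in none, with a median of 0.88. Of all measured genes 8.4% were as far higher and 7.19% as far lower. Among the higher were the complement gene Hc at 2.59, the protease gene Napsa at 2.25 and the surfactant genes Sftpb at 2.13 and Sftpc at 1.66. The surfactant genes Sftpa1 at 0.62 and Sftpd at 0.02 were within 2-fold. The measured probe sets of Hc, Napsa and Sftpc were classed from the step alone. Alveolar type 1 genes were higher in 2 of 9 and lower in 1 of 9, with a median of 0.57, Ager at 2.24, Hopx at 1.72 and Akap5 at -1.23. Basal cell genes were higher in none of 8 and lower in 2 of 8, Snai2 at -1.89 and Itga6 at -1.50, and the basal keratin gene Krt5 stood at 0.65. General epithelial genes had 1 of 7 higher, Cdh1 at 1.46, and none lower, with a median of -0.09 and 5 of 7 below 0. Krt8, in the high class from the sum, was at 0.63, Epcam at -0.52 and Elf3, the lowest, at -0.80. Their part in the ratios of Scgb1a1, Muc5b, Scgb3a2 and Foxj1 was not tested, and a change in the share of cells of a kind cannot be told apart from a change in RNA per cell.

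Promoter sequence was held for 6 of the 10 members, and is shown for those that carry a core of the forkhead factors, the family of Foxa3 and Foxj1. The motif was chosen after the sequences were seen, and was searched on both strands in the 250 bases before each annotated start. It was spelled TGTTTAC with A allowed in place of G at the second letter (as in TATTTAC) and G allowed in place of A at the sixth letter (as in TGTTTGC), or both (which makes TATTTGC). It was present in 3 of the 6 members and in 11.9% of 32851 windows of that length. Bpifa1 (RefSeq, GRCm38.p6, chr2:154142630-154142879, plus strand) carried TATTTAC from 127 to 121 bases before its start, in capitals in the whole window.
Bpifa1: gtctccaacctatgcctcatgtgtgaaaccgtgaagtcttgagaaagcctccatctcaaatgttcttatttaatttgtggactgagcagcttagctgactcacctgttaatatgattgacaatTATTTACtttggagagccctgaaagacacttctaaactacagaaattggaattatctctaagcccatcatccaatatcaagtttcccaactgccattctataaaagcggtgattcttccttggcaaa
Scgb3a1 (chr11:49663529-49663558, plus strand) and Spdef (chr17:27728980-27729009, minus strand) carried the motif in the opposite orientation, shown in capitals with the bases around it.
Scgb3a1: ctgttagctgaGCAAACAacacagttccca
Spdef: tatttgttcagGTAAATAaggaaggattac
The 3 members with a match had log2 ratios of -0.93, 0.56 and -0.20. No window was held for Scgb1a1, Muc5b, Scgb3a2 and Foxj1, the only members past 2-fold. A match could therefore not fall on a member past 2-fold, and these ratios say nothing on the motif. Over all measured genes, the median ratio was 0.02 for the 1221 with a match and -0.01 for the 10673 without, and 17.9% and 14.5% were past 2-fold. A match describes these letters and is neither a site nor a cause.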

How the data were processed

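The deposited table holds log2 values of 45101 probe sets for 1 array of each line. MAS5 is named in the submitters' processing notes, with scaling and version not given in the sources used here. For the deposited values the log2 unit is an assumption, since the base is not stated; with a natural log every fold would be larger. Both values of a probe set sum to 0 within rounding. In single precision the rounding of a number grows with its size, so a level class was taken from the size of the sum or, where it was 0, from the step. An earlier account of these data used the same classes; the make-up of the step classes was computed here from the counts of non-zero sums. Classing and counting were tested on simulated data. The simulated ratios were mostly small and spread alike at every level, so the test says little on the classing of large ratios.

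Probe sets were named by the platform annotation of 2016: 34945 list a single gene, 932 several and 9160 none, beside 64 controls. Symbols of 34741 were updated by gene number through RefSeq (GRCm38.p6). A gene's value was the median over its high- or middle-class probe sets. Genes were counted at 2-fold. The members, lists and tests were chosen with earlier results of these data known, and no list is independent support. The text names every member, in each list up to 2 genes past 2-fold on each side, or, where none was, its highest and lowest, and 10 preset genes. Selenbp1, Cbr2, Aldh1a7, Muc20, Tff3, Tekt1, Pifo, Rfx2, Stat6, Il4ra, Ehf, Sftpa1, Sftpb, Sftpc, Sftpd, Krt8, Epcam, Elf3, Cftr, Ptprc and the neighbours were named after their values were seen. The number of arrays limits the precision. Python 3.11.15, pandas 2.3.3 and numpy 2.4.6 were used. No value column was left unused.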

Additional observations from a re-analysis of the deposited data

How the results depend on the processing

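Counts depended on the fold threshold and on which probe sets entered. The count of members at least 2-fold higher was 3 and remained so with every probe set, with means of probe sets and with chromosome medians subtracted. It was 1 (of 2 members) in the high class alone and 1 (of 3) with the class from the sum. It was also 1 (of 4) without probe sets whose names end in _a_at, _s_at or _x_at. The probe sets of members dropped there, those of Scgb1a1 and Scgb3a2 among them, all end in _a_at, and each is annotated to 1 gene only. The count at least 2-fold lower was 1, became 0 in the high class alone and at 4-fold, and 2 at 1.5-fold, where Bpifa1 entered. At 4-fold 2 members were higher. The median of the members changed sign, from 0.20 to -0.16 with the class from the sum and to -0.18 without probe sets with those endings. The other lists together held 28 higher and 14 lower genes of 144 measured. These became 15 and 7 in the high class and again with the class from the sum, 48 and 25 at 1.5-fold and 14 and 5 at 4-fold, and 42 and 24 with every probe set. Of all measured genes 15.6% were past 2-fold, 31.7% at 1.5-fold and 4.96% at 4-fold, and between 11.7% and 23.3% under the other settings. These settings differ by construction in the genes or the threshold used. No called ratio of a member changed sign, but each member had only 1 probe set. A setting could thus only keep its value, drop it or shift it by the chromosome median. No paired analysis was possible because each line has 1 array. Signal over background was not available, so faint genes are known only by class.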

Other observations

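Rarer epithelial cells of the airway were also read. Of 6 measured neuroendocrine genes 1 was at least 2-fold higher in Mle29c and 2 lower, with a median of -0.89. Uchl1, a ubiquitin hydrolase gene of neurons and neuroendocrine cells, stood at 6.05 from 1 probe set in the middle class from the sum, while Ddc, an amine-synthesis enzyme gene, was at -2.49 and the synaptic gene Snap25 at -1.58. The median was 0.12 over 10 genes with every probe set kept and -1.69 over the 2 genes with high-class probe sets. It was 2.93 over the 2 genes with a class taken from the sum, 1 of them Uchl1, which sets that value. Snap25 was at -0.79 with every probe set. Of 5 measured tuft cell and ionocyte genes 1 was higher, the taste channel gene Trpm5 at 1.79 (0.68 with every probe set kept), with Cftr at 0.81 from probe sets at -0.42 and 2.04.

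Fibroblast genes had 1 of 8 higher, Col3a1 at 1.55, and 1 lower, Col1a1 at -3.41, with a median of 0.10. Immune cell genes had 2 of 6 higher, Marco at 2.88 and Laptm5 at 1.02, and 1 lower, Itgax at -2.66. The 4 measured probe sets of Laptm5 ran from -1.60 to 2.06, and with every probe set kept Marco was at 0.91 and Laptm5 at 0.77, both within 2-fold. The pan-leukocyte gene Ptprc had only low-class probe sets.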
